A study of Mus musculus with 15 samples.

Results

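The genes described here are 10 genes with which the acinar cell of the pancreas receives cerulein and other signals to secrete, and with which it stores and releases its zymogen granules. They comprise 4 receptors (Cckar, Cckbr, Chrm3 and Sctr), the calcium release channel Itpr3, the granule traffic genes Rab3d and Vamp8, and the granule proteins Zg16, Gp2 and Sycn. They were listed by name for their known roles, with earlier results of these data known, and no threshold on a measured value was used. All 10 were listed in each of the 3 deposited count tables, out of 15175 genes in the MC table and 49585 genes in the HC table and in the KC and KMC table.

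Cerulein is a peptide that acts on the receptors of the gut hormone cholecystokinin, and in excess it injures acinar cells and causes acute pancreatitis. Cholecystokinin and acetylcholine receptors of the acinar cell act through the G protein Gq and inositol trisphosphate, which opens channels that release calcium near the apical membrane, whereas the secretin receptor acts through Gs and cAMP. Calcium triggers exocytosis, in which Rab GTPases guide the zymogen granules to the apical membrane and SNARE proteins fuse them with it.

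RNA-Seq was performed on pancreata of C57BL/6 mice, and each of the 15 libraries held RNA pooled from 3 mice. HPK1 is the kinase encoded by Map4k1, and M46 is its kinase-dead form. Each transgene stood behind a CMV promoter and a stop cassette that is removed by Bac-cre (B in the labels). Bac-cre is a tamoxifen-inducible Cre driven by the acinar elastase I promoter, so that transgene expression was directed to acinar cells. The transgene was added to the endogenous Map4k1, and the paper states that its transgenic mice still expressed endogenous HPK1. The MC group comprised 3 libraries of HPK1-M46 transgenic mice aged 2 months, with 3 control libraries labelled B control of the same age. The HC group comprised 3 libraries labelled HPK1/B from mice aged 4 months, with 2 control libraries labelled WT of the same age. The paper is not uniform on the treatment of the controls: its results describe cerulein for HC, MC and littermate control mice alike, whereas its methods give PBS for the littermate controls, and the labels name no treatment. Genotype and cerulein treatment may therefore differ together between MC or HC and their controls. By the labels, Bac-cre also differs together with the HPK1 transgene between the libraries labelled HC (HPK1/B) and their controls (WT). Bac-cre and HPK1 cannot be told apart there. The KMC group comprised 2 libraries labelled M46/Ras/B from mice aged 9 months and was compared with 2 KC libraries labelled Ras/B from mice aged 15 months. Both KMC and KC mice carried Bac-cre, and the study described these libraries as samples of pancreatic ductal adenocarcinoma. The labels do not say whether KC and KMC mice received cerulein.

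The deposited counts summed to 29766575 to 38745907 per library, so that 3 counts corresponded to 0.0774 to 0.101 CPM (counts scaled to library size). Levels are given as CPM scaled by the TMM method of edgeR unless stated otherwise. Map4k1 was measured at 8.32, 6.79 and 7.51 CPM in MC against 3.80, 4.14 and 2.34 CPM in its controls, and at 5.92 and 11.4 CPM in KMC against 0.545 and 1.55 CPM in KC. The libraries labelled HC had 7.33, 5.05 and 7.93 CPM, below the 15.4 and 11.5 CPM of their controls, which goes against the label. Map4k1 is also expressed by leukocytes, and the leukocyte marker list moved with it. In the libraries labelled HC 9 of 9 markers were lower (median log2 fold change -0.85), 1 of them called, beside 0.565% of all genes. Their sum was 1751 to 2479 CPM against 2398 to 4632 CPM. In MC 8 of 8 were higher (median 1.41) and in KMC 9 of 9 (median 2.25). The part of these cells in the level of Map4k1 was not tested, and the counts do not separate transgene from endogenous reads. One of these libraries, HC 3, expressed Ddx3y of the Y chromosome at 48.4 CPM and had 0.761 CPM of Xist, whereas the other 4 libraries of the HC table had 579 to 929 CPM of Xist and no count of Ddx3y. The KC libraries had 10.7 and 17.3 CPM of Ddx3y, and the KMC libraries had 306 and 406 CPM of Xist and no Ddx3y. Genotype, age and sex therefore cannot be told apart between KMC and KC. A list of 15 acinar markers, of which 14 are listed in the MC table, took 25.1 to 32.8% of the counts in MC against 29.9 to 40.5% in its controls, 3.96 to 6.2% in the libraries labelled HC against 4.66 to 6.09% in theirs, and 17.3 to 32.6% in KMC against 42.4 to 47.8% in KC. In such bulk samples, fewer acinar cells and less RNA per acinar cell cannot be told apart. The p-values below measure only the spread between these libraries.

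The promoters of 4 of the genes are shown because 3 of them, Sycn, Gp2 and Rab3d, varied together over the libraries and Itpr3 ran opposite to them, as described at the end. RefSeq gave a promoter for 7 of the 10 genes, and entries for Cckar, Sctr and Zg16 were not used here. Each sequence is the stretch of the RefSeq promoter window (GRCm38.p6) that lies before the annotated start of the gene, on the strand of the gene and 5′ to 3′. The capitals mark the letters of a TATA box (TATAAA) or of a GC box (GGGCGG, or CCGCCC where it lies on the other strand). The Sycn promoter is chr7:28540635-28540884 on the plus strand and that of Gp2 is chr7:119459286-119459522 on the minus strand. The Rab3d promoter is chr9:21918193-21918433 on the minus strand and that of Itpr3 is chr17:27057054-27057303 on the plus strand.
Sycn promoter: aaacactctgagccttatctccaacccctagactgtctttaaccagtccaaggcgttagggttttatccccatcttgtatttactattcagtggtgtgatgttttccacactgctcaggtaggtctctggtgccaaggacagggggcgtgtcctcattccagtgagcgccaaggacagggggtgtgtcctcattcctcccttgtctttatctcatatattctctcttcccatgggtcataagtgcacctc
Gp2 promoter: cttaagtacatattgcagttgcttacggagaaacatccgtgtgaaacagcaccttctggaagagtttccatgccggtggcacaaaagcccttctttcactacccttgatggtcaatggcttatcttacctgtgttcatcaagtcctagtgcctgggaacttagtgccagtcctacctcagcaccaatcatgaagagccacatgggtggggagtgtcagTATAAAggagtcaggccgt
Rab3d promoter: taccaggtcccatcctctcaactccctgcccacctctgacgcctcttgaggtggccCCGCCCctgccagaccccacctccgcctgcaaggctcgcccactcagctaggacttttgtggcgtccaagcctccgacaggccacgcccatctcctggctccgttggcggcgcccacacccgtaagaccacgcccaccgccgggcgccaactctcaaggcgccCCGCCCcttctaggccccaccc
Itpr3 promoter: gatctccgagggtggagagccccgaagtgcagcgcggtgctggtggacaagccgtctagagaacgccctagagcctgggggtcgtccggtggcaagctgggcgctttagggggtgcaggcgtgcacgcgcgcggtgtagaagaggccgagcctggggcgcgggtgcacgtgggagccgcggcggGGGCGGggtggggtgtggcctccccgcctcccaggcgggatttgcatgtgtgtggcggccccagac

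The promoters of the 2 granule proteins were 49.2% (Sycn) and 48.5% (Gp2) G and C, against 69.3% in Rab3d and 72.0% in Itpr3. TATAAA began 19 bases before the annotated start of Gp2 and was found, on either strand, in 12.4% of 32851 mouse promoters of 250 bases. GGGCGG or CCGCCC was found in 32.7% of them, and began 185 and 22 bases before the start of Rab3d and 66 bases before that of Itpr3. The E-boxes CAGCTG (13% of all promoters) and CATATG (3.46%) and the letters AAGGTCA (4.08%) were in none of the 7 promoters, and CACCTG (17.2%) was in that of Cckbr, all searched on both strands. Such matches describe letters and not bound sites.

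In normal acinar biology the granule proteins are far more abundant than the machinery that moves them. The medians of every table had this order on the scale of CPM per kilobase of exon. In library HC 1 it did not hold for Zg16, at 48.3 CPM per kb against 51.1 for Rab3d. In the MC table the median over libraries was 5220 CPM per kb for Sycn, 3080 for Zg16 and 2009 for Gp2. Cckar followed at 210 CPM per kb, Rab3d at 44.3, Vamp8 at 26.7, Itpr3 at 5.60, Chrm3 at 3.21, Sctr at 1.45 and Cckbr at 0.556. Each gene down to Chrm3 lay above the whole range of the next over these 6 libraries, and only Sctr and Cckbr overlapped. In the KC and KMC table Zg16 (5994 CPM per kb) and Sycn (5223) overlapped, followed by Gp2 (1483), Cckar (133) and Rab3d (48.2). Below them, Itpr3 (3.46) overlapped both Vamp8 (17.6) and Chrm3 (2.28), and Sctr (0.636) overlapped Cckbr (0.403). In the HC table Gp2 was highest at 2162 CPM per kb and overlapped Sycn (1104), Zg16 (212), Rab3d (51.1), Vamp8 (44.5) and Itpr3 (34.4) followed with ranges that met, and Cckar was below all of these at 13.5 CPM per kb. Sctr (3.79), Chrm3 (2.05) and Cckbr (0.0298) closed the order. These tables came from separate experiments, and levels were not tested across them.

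**Figure D1:**
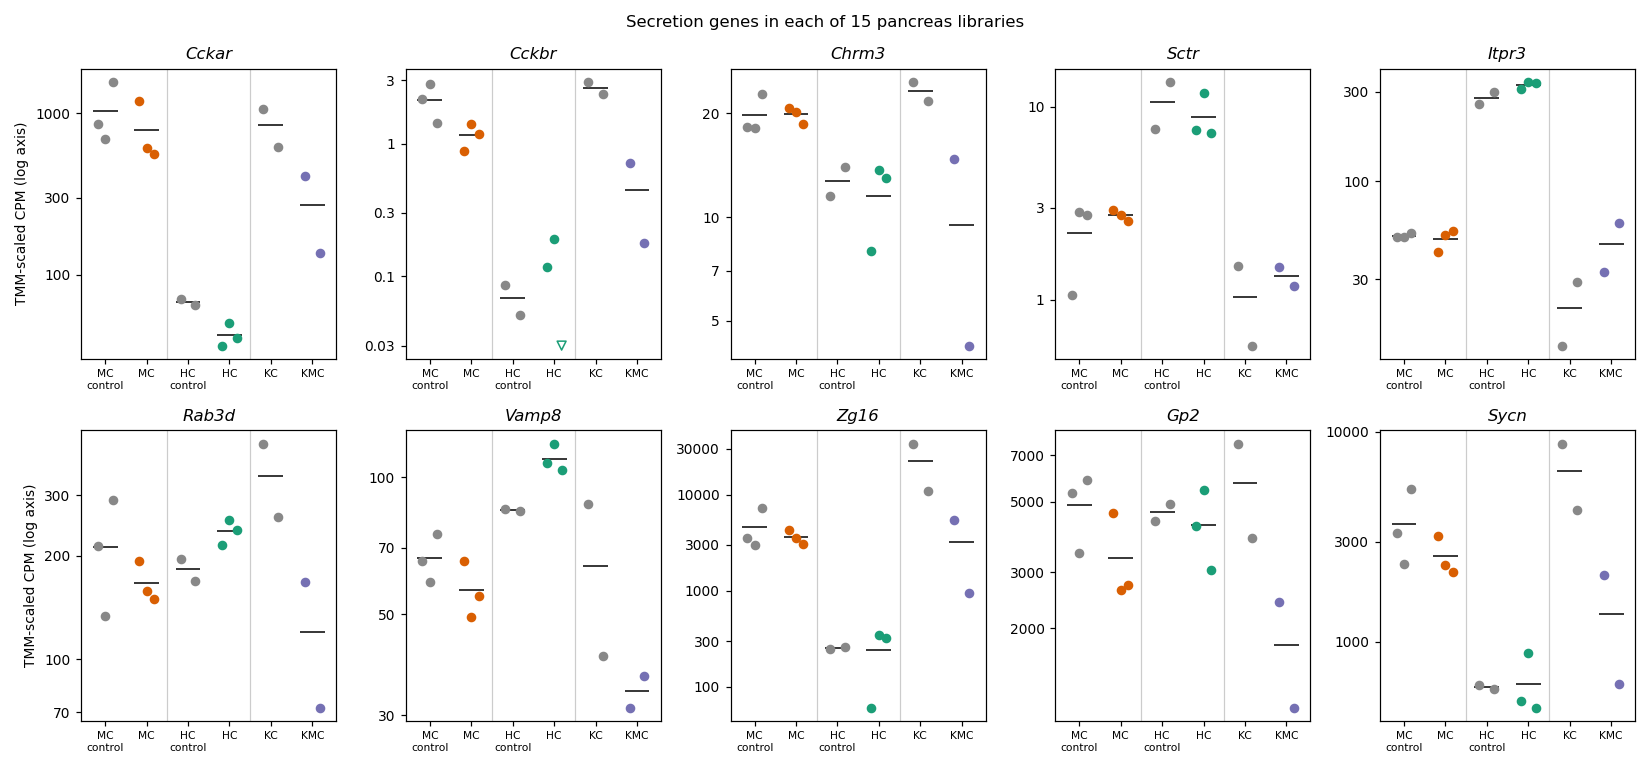
Level of each of the 10 genes in each of the 15 libraries, as TMM-scaled CPM on log axes. Points are libraries (grey, controls or KC, orange, MC, green, HC, purple, KMC), bars are group means where every library has a count, and the open triangle is the library with a Cckbr count of 0. The libraries labelled HC had 36.6 to 50.3 CPM of Cckar, all below their 2 controls.

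MC mice were compared with their controls to ask what kinase-dead HPK1 did to these genes. None of the 10 genes was differentially expressed, defined by an adjusted p (Benjamini-Hochberg) no higher than 0.05 and a log2 fold change of 1 or more in size, as was the case for 0% of the 13902 genes tested. On the log2 scale 8 of the 10 genes were lower and 2 higher, with a median of -0.34 against -0.02 over all genes. Only Cckbr had groups that did not overlap, lower in MC, beside 20.7% of all genes in either direction and 9.89% lower. Adjusted p-values ranged from 0.293 to 0.976 (quasi-likelihood test of edgeR), and 1 gene, lower in MC, had an unadjusted p under 0.05, beside 14.7% of all genes in either direction and 5.46% lower. DESeq2 called none of the 10 either, beside 3.11% of all genes called higher and 0.151% called lower. The scaling mattered for direction, since with total counts as the only scaling the median of all genes was 0.29, that of the 10 genes was 0.05, and Rab3d, Vamp8, Zg16 and Itpr3 were higher rather than lower in MC.

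The libraries labelled HC were compared with their controls in the same way, where the intact kinase and Bac-cre differ together by the labels. The cholecystokinin receptor Cckar was lower and the granule traffic genes Rab3d and Vamp8 were higher, each without overlap between groups, but none of the 9 genes tested was differentially expressed (0.565% of all 18407 genes were). The groups did not overlap for 4 of them, 1 lower and 3 higher, beside 33.5% of all genes. An unadjusted p under 0.05 was reached by 3 genes, 2 higher and 1 lower, beside 15.9% of all genes (8.39% higher and 7.47% lower). The direction was split, with 4 genes higher and 5 lower and a median log2 fold change of -0.05 against 0.00 over all genes. By DESeq2, Cckar and Vamp8 passed the adjusted p of 0.05 without reaching the fold limit, as did 6.77% of all genes without regard to fold.

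KMC was compared with KC to ask what M46 added to the genotype labelled Ras/B. The granule proteins and the cholecystokinin receptors were lower in KMC and Itpr3 was higher, with large differences between libraries of each group. None of the 10 genes was differentially expressed by edgeR (0.0191% of 15733 genes were), and 2, both lower, reached an unadjusted p under 0.05, beside 25.6% of all genes (9.48% lower). In 8 genes both KMC libraries were below both KC libraries and in 1 gene above them, beside 30.9% and 34.4% of all genes, or 65.3% together. The median log2 fold change of the 10 genes was -1.57 against 0.03 over all genes. DESeq2 called 6 of them, all lower, beside 4.47% of all genes called lower and 9.25% called higher. With the libraries scaled by their totals alone, the median of the 10 genes was -0.21 while that of all genes moved to 1.47, so that the median of the 10 genes was below that of all genes under either scaling.

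**Figure D2:**
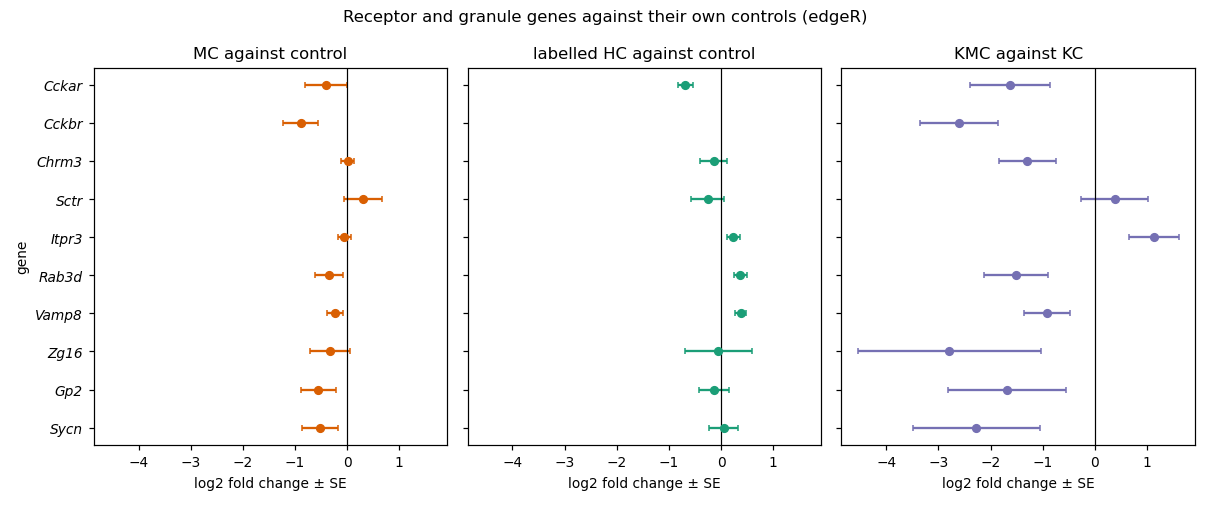
Log2 fold change of each gene in MC, in the libraries labelled HC and in KMC, each against its own control, with bars of ± 1 SE from edgeR. In KMC, 8 of the 10 genes lie below 0, and Itpr3 lies above it at 1.13. Cckbr was not tested in the HC table.

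Cckar encodes the cholecystokinin A receptor, the high-affinity receptor for cholecystokinin and cerulein on rodent acinar cells (ENSMUSG00000029193, GRCm38 chr5:53697776-53707705, minus strand). The MC libraries had 1190, 613 and 556 CPM, against 858, 695 and 1566 CPM in the controls. The groups overlapped widely, with a log2 fold change of -0.40 (SE 0.40, adjusted p = 0.623, edgeR). Values in the libraries labelled HC were 36.6, 50.3 and 40.7 CPM against 70.9 and 65.7 CPM in their controls. Every library labelled HC was below both controls, the mean being 42.5 ± 7.02 CPM (SD, n = 3), compared with 68.3 ± 3.69 CPM (SD, n = 2). The log2 fold change was -0.68 (SE 0.15) with an unadjusted p of 0.00292 and an adjusted p of 0.109 by edgeR's quasi-likelihood test. DESeq2 gave an adjusted p of 0.00493 for the same gene, the lowest over the alternatives tried. The fold change ranged from -0.82 to -0.59 over these alternatives. Without HC 3, the library with Ddx3y, it was -0.67. In KMC, Cckar was at 407 and 137 CPM against 1068 and 620 CPM in KC. The KMC libraries differed from each other by more than the KC libraries did in ratio, and the log2 fold change was -1.63 (SE 0.77, adjusted p = 0.225 by edgeR and 0.0205 by DESeq2). With total counts as the only scaling it shrank to -0.31.

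Cckbr encodes the cholecystokinin B receptor, which also binds gastrin (ENSMUSG00000030898, chr7:105425731-105470898, plus strand). Its median level was the lowest of the 10 genes in each table, with 26, 60 and 48 counts in MC and 66, 95 and 32 counts in the controls. On the CPM scale these were 0.879, 1.41 and 1.19 in MC and 2.18, 2.83 and 1.44 in the controls. All MC libraries were below all controls by a narrow margin, with a log2 fold change of -0.89 (SE 0.33, unadjusted p 0.0298, adjusted p = 0.293, edgeR). In the HC table Cckbr had 4, 6 and 0 counts against 3 and 2 counts in the controls, at or near the 3 counts that a count of 0 allows, and it was not tested. In KMC it had 29 and 15 counts against 43 and 61 in KC, or 0.713 and 0.179 CPM against 2.93 and 2.36 CPM. Both KMC libraries were lower, with the strongest fold change among the receptors, -2.61 on the log2 scale (SE 0.75, adjusted p = 0.113 by edgeR and 0.00863 by DESeq2). Cckbr is also carried by stomach gland and islet cells. Stomach gland markers summed to 245 to 699 CPM in KMC against 1356 to 4859 CPM in KC, with 3 markers lower and 5 higher. Islet markers summed to 773 to 1492 CPM against 1593 to 3080 CPM, with 6 lower and 2 higher. Their part in the level of Cckbr was not tested.

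Chrm3 encodes the M3 muscarinic receptor, through which acetylcholine from the vagus nerve stimulates secretion (ENSMUSG00000046159, chr13:9875486-10360847, minus strand). It was almost level in MC, with 20.7, 20.2 and 18.7 CPM against 18.3, 18.2 and 22.8 CPM. The log2 fold change was 0.01 (SE 0.13, adjusted p = 0.976, edgeR). Libraries labelled HC had 8.0, 13.7 and 13.0 CPM against 11.5 and 14.0 CPM, which overlapped (-0.14, SE 0.26, adjusted p = 0.845, edgeR). The KMC libraries had 14.8 and 4.24 CPM against 24.7 and 21.7 CPM in KC. Both KMC libraries were below KC, with a log2 fold change of -1.29 (SE 0.55, unadjusted p 0.0501, adjusted p = 0.195 by edgeR and 0.094 by DESeq2), which became -0.05 when total counts were the only scaling.

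Sctr encodes the secretin receptor, best known on pancreatic duct cells, where it drives bicarbonate secretion (ENSMUSG00000026387, chr1:120006894-120063536, plus strand). Its groups overlapped in every comparison. It was 2.91, 2.75 and 2.57 CPM in MC against 1.06, 2.86 and 2.74 CPM in the controls. The 3 libraries labelled HC had 7.62, 11.8 and 7.29 CPM against 7.69 and 13.5 CPM, and in KMC 1.47 and 1.18 CPM against 1.5 and 0.581 CPM. The log2 fold changes were 0.31 (SE 0.37), -0.25 (SE 0.32) and 0.38 (SE 0.64), with adjusted p-values of 0.686, 0.763 and 0.731 by edgeR's quasi-likelihood test. The summed level of the ductal marker list, given beside Sctr because of its cell type, was 936 to 1620 CPM in MC against 593 to 1557 CPM, 4591 to 5915 CPM in the libraries labelled HC against 4377 to 4638 CPM, and 455 to 806 CPM in KMC against 217 to 256 CPM.

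Itpr3 encodes an inositol trisphosphate receptor of the apical endoplasmic reticulum and was the one gene of the 10 that was higher in KMC without overlap (ENSMUSG00000042644, chr17:27057304-27122223, plus strand). It was 32.6 and 59.9 CPM in KMC against 13.3 and 28.9 CPM in KC. The lower KMC library was close to the higher KC library, and the log2 fold change was 1.13 (SE 0.48, unadjusted p 0.0506, adjusted p = 0.196, edgeR). The libraries labelled HC had 310, 339 and 332 CPM against 257 and 300 CPM. All libraries labelled HC were above both controls, by a log2 fold change of 0.23 (SE 0.12, adjusted p = 0.43, edgeR). Levels in MC were 41.9, 51.4 and 54.0 CPM against 50.3, 50.1 and 53.0 CPM, a log2 fold change of -0.06 (SE 0.12, adjusted p = 0.827, edgeR). Itpr3 is also expressed outside acinar cells, and other markers moved beside it in KMC: tuft cell markers summed to 21.3 to 38.0 CPM against 4.22 to 5.96 CPM, leukocyte markers to 895 to 2556 CPM against 279 to 309 CPM and fibroblast markers to 2121 to 6208 CPM against 424 to 884 CPM. Their part in the level of Itpr3 was not tested. Exons of Itpr3 share 233 bases with Itpr3os on the opposite strand and 1 base with Mir7677, so that without a stated strand setting reads there cannot be told apart.

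Rab3d encodes a small GTPase on zymogen granules (ENSMUSG00000019066, chr9:21907491-21918192, minus strand). Values in the libraries labelled HC were 216, 255 and 239 CPM against 197 and 169 CPM in the controls. All libraries labelled HC were above both controls, at 236 ± 19.5 CPM (SD, n = 3), compared with 183 ± 19.2 CPM (SD, n = 2), with a log2 fold change of 0.37 (SE 0.13, unadjusted p 0.0255, adjusted p = 0.243, edgeR). It was 0.35 without HC 3. MC libraries held 193, 158 and 150 CPM against 214, 133 and 291 CPM, with overlap (-0.35, SE 0.27, adjusted p = 0.53, edgeR). Levels in KMC were 168 and 72.3 CPM against 425 and 259 CPM in KC. Both KMC libraries were lower, with a log2 fold change of -1.51 (SE 0.61, unadjusted p 0.0418, adjusted p = 0.181 by edgeR and 0.0201 by DESeq2). This difference depended on the scaling, since the CPM of total counts were 209 and 157 in KMC against 207 and 198 in KC, a log2 fold change of -0.15.

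Vamp8, also called endobrevin, is a SNARE protein of the zymogen granule membrane (ENSMUSG00000050732, chr6:72385223-72390703, minus strand). Libraries labelled HC had 107, 119 and 104 CPM against 85.3 and 84.3 CPM. The groups were separated, at 110 ± 7.68 CPM (SD, n = 3), compared with 84.8 ± 0.716 CPM (SD, n = 2). The log2 fold change was 0.37 (SE 0.10, unadjusted p 0.00857, adjusted p = 0.166 by edgeR and 0.0336 by DESeq2), and 0.40 without HC 3. The adjusted p of DESeq2 was the lowest over the alternatives tried. The MC libraries had 65.4, 49.3 and 54.9 CPM against 65.6, 58.9 and 74.9 CPM, a log2 fold change of -0.23 (SE 0.15, adjusted p = 0.452, edgeR). KMC libraries held 31.2 and 36.5 CPM against 87.2 and 40.5 CPM in KC, the lower value being close to KMC (-0.91, SE 0.44, adjusted p = 0.233, edgeR). With total counts as the only scaling the KMC value was 0.69, in the opposite direction.

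Zg16 encodes a lectin-like protein of the granule matrix and membrane (ENSMUSG00000049350, chr7:127050156-127087328, minus strand). It varied widely between libraries of the same group. The KMC libraries had 5503 and 952 CPM against 33901 and 10809 CPM in KC. Both KMC libraries were lower, by a log2 fold change of -2.79 with an SE of 1.76 (adjusted p = 0.34 by edgeR and 0.00123 by DESeq2). The 3 libraries labelled HC had 61.0, 344 and 323 CPM against 246 and 258 CPM, so that HC 1 was below the controls and the others above them (-0.05, SE 0.64, adjusted p = 0.979, edgeR). Levels in MC were 4333, 3499 and 3037 CPM against 3558, 2963 and 7195 CPM, a log2 fold change of -0.34 (SE 0.38, adjusted p = 0.672, edgeR).

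Gp2 encodes the major glycoprotein of the granule membrane, which is also a marker of intestinal M cells (ENSMUSG00000030954, chr7:119442537-119459285, minus strand). MC libraries held 4616, 2648 and 2734 CPM against 5327, 3459 and 5846 CPM, with overlap through MC 1 and control 2 (-0.55, SE 0.34, adjusted p = 0.447, edgeR). The libraries labelled HC had 4179, 5435 and 3044 CPM against 4359 and 4914 CPM (-0.14, SE 0.30, adjusted p = 0.874, edgeR). These values were spread on both sides of the controls. Levels in KMC were 2414 and 1129 CPM against 7601 and 3840 CPM in KC, a log2 fold change of -1.69 (SE 1.13, adjusted p = 0.367 by edgeR and 0.00881 by DESeq2). In MC the M cell marker list summed to 56.2 to 70.9 CPM against 17.7 to 53.1 CPM. There 4 of 4 markers tested were higher, 2 without overlap, beside 10.9% of all genes. The list summed to 192 to 318 CPM in the libraries labelled HC against 223 to 321 CPM in its controls, and to 43.1 to 99.4 CPM in KMC against 11.2 to 19.0 CPM in KC. In MC and KMC it was opposite to the direction of Gp2.

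Sycn encodes syncollin, a protein of the inner granule membrane (ENSMUSG00000084174, chr7:28540885-28542209, plus strand). The gene lies inside Samd4b on the opposite strand and shares no exon bases with it. The MC libraries had 3194, 2313 and 2144 CPM against 3297, 2336 and 5330 CPM, which overlapped (-0.52, SE 0.35, adjusted p = 0.482, edgeR). Values in the libraries labelled HC were 521, 886 and 485 CPM against 622 and 594 CPM (0.05, SE 0.28, adjusted p = 0.954, edgeR). KMC libraries held 2071 and 628 CPM against 8783 and 4247 CPM in KC. Both KMC libraries were lower, by a log2 fold change of -2.27 (SE 1.22, adjusted p = 0.271 by edgeR and 0.00144 by DESeq2), or -0.93 with total counts as the only scaling.

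Because most of the 10 genes are expressed by acinar cells, their counts were also set against those of the acinar marker list in the same library. The summed acinar markers themselves differed from the controls by -0.70 in MC, -0.09 in the libraries labelled HC and -2.35 in KMC (log2 of TMM-scaled CPM). Rab3d was above its control in this ratio in all 3 comparisons without overlap, as were 0.945% of 13647 genes (11.8% in MC alone). In MC it had 0.554, 0.771 and 0.719 counts per 1000 acinar marker counts against 0.516, 0.503 and 0.508. Its ratios in the libraries labelled HC were 4.43, 4.06 and 5.97 against 3.20 and 3.75, and in KMC 0.640 and 0.905 against 0.432 and 0.466 in KC. The differences of the mean log2 ratio were 0.41, 0.46 and 0.76. They were below the median of all genes in MC (0.67) and KMC (2.31) and above it in the libraries labelled HC (0.09).

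Cckar had 0.752 to 1.02 counts per 1000 acinar marker counts in the libraries labelled HC against 1.15 and 1.46 in their controls, a mean log2 difference of -0.61. It was thus lower than the controls also in relation to the acinar markers, as were 5.69% of all genes in this comparison. In MC the ratio was 2.66 to 3.42 against 2.07 to 2.73, which overlapped. In KMC it was higher, at 1.55 to 1.71 against 1.09 to 1.11, a mean log2 difference of 0.57. This was below the median of all genes in KMC (2.31), of which 95.4% were higher without overlap. Vamp8 was above the controls in the libraries labelled HC (1.89 to 2.6 against 1.39 and 1.87) by 0.46, beside 10.2% of all genes that were higher without overlap.

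In KMC 7 of the 10 genes were above KC in this ratio, 1 was below and 2 overlapped, whereas 95.4% of all genes were above and 0.191% (30 genes) below. Cckbr was the gene below, with a mean log2 difference of -0.53, from 15 to 61 counts per library. The part of other cell types in its level was not tested. Sycn had 7.86 and 7.89 counts per 1000 acinar marker counts in KMC against 7.63 and 8.94 in KC, and Zg16 had 11.9 and 21.0 against 19.4 and 34.5. Gp2 was higher, at 9.20 to 14.1 against 6.90 to 7.74. The differences of Sycn and Gp2 were -0.07 and 0.64, whereas those of Itpr3, Sctr and Vamp8 were 3.53, 2.85 and 1.54.

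**Figure D3:**
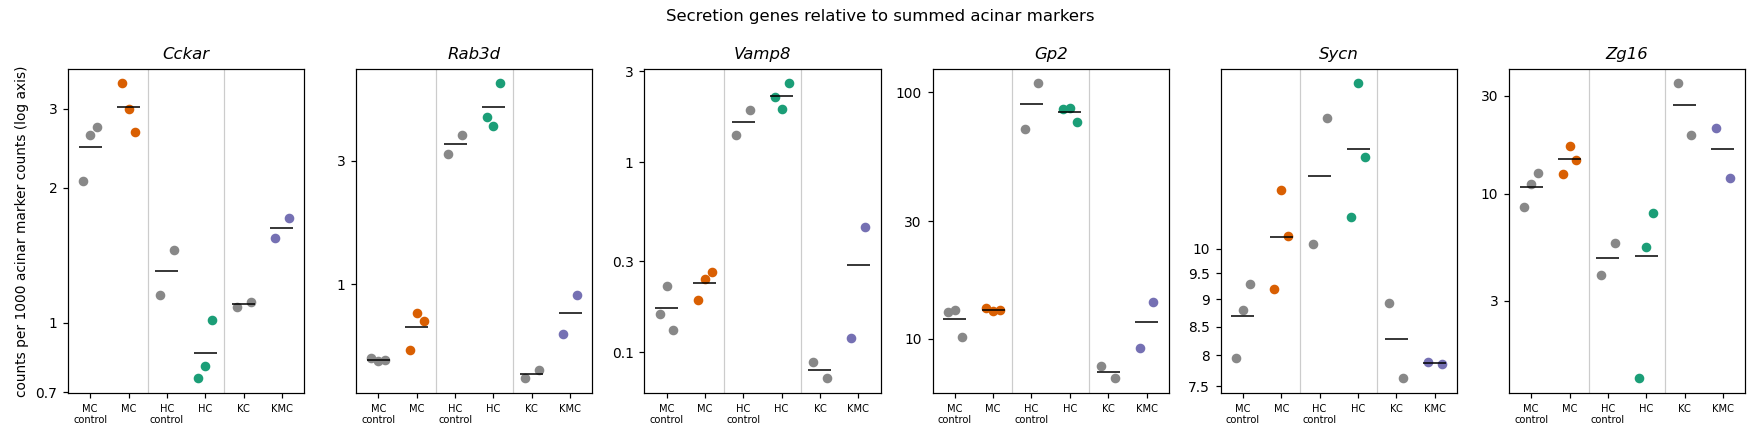
Counts of 6 genes per 1000 counts of the acinar marker list in the same library, on log axes, by group. Rab3d is above its controls in all 3 comparisons, Cckar is below its controls in the libraries labelled HC, and Sycn overlaps between KMC and KC.

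The granule docking and fusion list, which holds Rab GTPases, their effectors, SNARE proteins and their partners, comprised 23 genes, of which 22 were tested. In the libraries labelled HC 17 of them were higher and 5 lower, with a median log2 fold change of 0.28 against 0.00 over all genes. The groups did not overlap for 9 genes that were higher and for none that was lower, beside 17.5% and 16.1% of all genes. An unadjusted p under 0.05 was reached by 8 genes, all higher, beside 8.39% of all genes. This count was 4 without HC 2 or HC 3, and 5 without control 1. None was differentially expressed with the fold limit, and 2 rose with an adjusted p of at most 0.05, beside 0.739% of all genes. These were Myo5c and Rab27a.

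Myo5c, a class V myosin that moves secretory granules along actin, was 119, 130 and 117 CPM in the libraries labelled HC against 71.5 and 73.6 CPM. Rab27a, a GTPase of secretory granules, was 99.4, 119 and 111 CPM against 63.2 and 57.1 CPM. Both were above the controls in every library labelled HC, by log2 fold changes of 0.75 (SE 0.10) and 0.87 (SE 0.12), each with an adjusted p of 0.0449 by edgeR's quasi-likelihood test. Neither passed when HC 2, HC 3 or either control was left out, with all 15 libraries in one fit or with acinar enzymes left out of the library size, and Myo5c did not pass with housekeeping scaling, while without HC 1 the number of genes of the list that passed became 4. The list's median stayed between 0.24 and 0.33 over the alternatives. In MC the same list had a median of -0.09 and 1 gene in each direction with an unadjusted p under 0.05 (9.2% of all genes higher and 5.46% lower). Sytl1, a Rab27 effector, was the lower one, at 56.6, 44.6 and 41.6 CPM in MC against 75.5, 60.3 and 65.5 CPM (-0.50, SE 0.15, adjusted p = 0.234, edgeR). In KMC 17 of the 22 genes were lower, with a median of -0.22 against 0.03 over all genes and 3 lower and 1 higher at an unadjusted p under 0.05, beside 9.48% and 16.1% of all genes. Rab26, a GTPase of maturing granules, was 14.2 and 4.25 CPM in KMC against 24.6 and 28.3 CPM in KC (-1.52, SE 0.54, adjusted p = 0.151, edgeR).

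**Figure D4:**
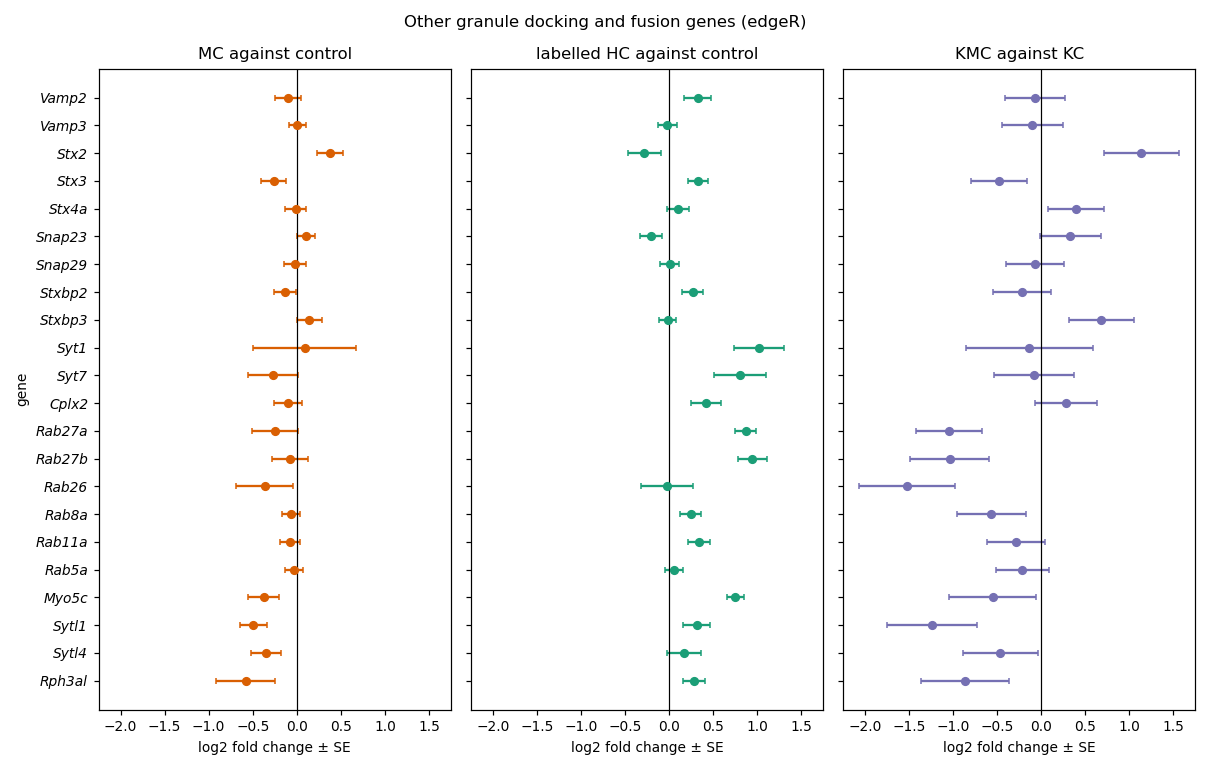
Log2 fold change of the granule docking and fusion genes in MC, in the libraries labelled HC and in KMC, each against its own control, with bars of ± 1 SE from edgeR. In the libraries labelled HC 17 of 22 genes lie above 0, with Myo5c at 0.75 and Rab27a at 0.87, and in KMC 17 of 22 lie below 0.

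Mist1 (Bhlha15) is a transcription factor that drives granule maturation in acinar cells, and its list held 10 genes of this program and acinar identity. In KMC all 10 were lower, with a median log2 fold change of -1.34 against 0.03 over all genes, 8 without overlap and 6 with an unadjusted p under 0.05, beside 30.9% and 9.48% of all genes in this direction. Ptf1a, a transcription factor of acinar identity, was 6.17 ± 3.26 CPM in KMC and 22.4 ± 7.27 CPM in KC (SD, n = 2 each), which gave -1.86 on the log2 scale (SE 0.47, adjusted p = 0.0961, edgeR). With total counts as the only scaling the list's median in KMC was 0.02. In MC 8 of the 10 were lower with a median of -0.37, and none reached an unadjusted p under 0.05.

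In the libraries labelled HC the Mist1 list had a median of -0.03, and 3 of its genes, Atp2c2, Myo5c and Gata4, rose with an adjusted p of at most 0.05, beside 0.739% of all genes. None of the 3 passed without HC 2, HC 3 or either control, with all 15 libraries in one fit or with acinar enzymes left out of the library size, and 1 or 2 passed under other scalings and filters. Atp2c2, a calcium and manganese pump of the secretory pathway, was 12.8, 17.8 and 12.8 CPM against 4.19 and 4.92 CPM. It was the only one of the related genes that was differentially expressed with the fold limit, with a log2 fold change of 1.67 (SE 0.22, adjusted p = 0.0449 by edgeR and 2.74e-09 by DESeq2). The adjusted p was 0.106 without HC 2, 0.103 without HC 3, and 0.241 and 0.164 without control 1 or control 2. Gata4, a transcription factor of pancreas and stomach, was 81.0 ± 1.74 CPM (SD, n = 3), compared with 53.8 ± 0.569 CPM (SD, n = 2), a log2 fold change of 0.59 (SE 0.09, adjusted p = 0.0499, edgeR). Among the alternatives, Gata4 passed only with DESeq2, with the newer edgeR fit and without HC 1. In MC, Atp2c2 was 10.6, 4.47 and 3.60 CPM against 16.6, 5.51 and 28.4 CPM (-1.43, SE 0.62, adjusted p = 0.34, edgeR). The difference between its MC effect and that of the libraries labelled HC was -3.12 (SE 0.90) with an adjusted p of 0.125 in the fit over all 15 libraries.

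Markers of other cell types moved in both directions beside these genes in the HC table. Stomach pit cell markers summed to 5436 to 7242 CPM in the libraries labelled HC against 1445 to 2475 CPM in their controls. All 5 of 5 were higher without overlap, beside 17.5% of all genes. Gkn1, a secreted protein of the stomach surface, was 2888, 2336 and 2888 CPM against 680 and 322 CPM. Stomach gland markers, of which Atp4b was at the limit of 3 counts, summed to 2298 to 3970 CPM against 1218 to 1835 CPM. Goblet and gut markers summed to 413 to 526 CPM against 192 to 254 CPM, with Cdx1, Cdx2 and Apoa4 at the limit of 3 counts. Erythroid markers were higher for 5 of 5 genes, each with an unadjusted p under 0.05, beside 8.39% of all genes. Only 1 of them was higher without overlap, beside 17.5% of all genes. Their median log2 fold change was 2.93, and their sums overlapped, at 73.0 to 793 CPM against 59.0 to 76.8 CPM. Besides the leukocyte markers given above, 5 of 7 fibroblast markers were lower (median -0.47), at 4655 to 9920 CPM in sum against 9247 to 10539 CPM. Myo5c, Rab27a, Gata4 and Atp2c2 are not confined to acinar cells, and the part of these other cells in the differences was not tested.

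The list of other granule membrane and content genes, largely digestive enzymes, was lower in MC for 14 of 14 genes tested, with a median log2 fold change of -0.53 against -0.02 over all genes. The groups overlapped for all but 1 of them, Pla2g1b, a secreted phospholipase, beside 9.89% of all genes that were lower without overlap. Pla2g1b was 796 ± 143 CPM in MC against 1396 ± 372 CPM in the controls (SD, n = 3 each). Its log2 fold change was -0.81 (SE 0.26, adjusted p = 0.25, edgeR). With total counts as the only scaling the median of the list was -0.17. In KMC 15 of 15 genes were lower, all without overlap (30.9% of all genes), with a median of -1.98. Tmed6, a cargo adaptor of the early secretory pathway, had the smallest p among them (log2 fold change -2.16, SE 0.84, adjusted p = 0.171, edgeR). Among the libraries labelled HC 5 genes were higher and 11 lower, with a median of -0.09. Fam3b, a cytokine-like secreted protein also made by islets, was the highest of these in fold, at 57.1, 84.6 and 55.6 CPM against 22.5 and 13.2 CPM (1.88, SE 0.29, adjusted p = 0.0562 by edgeR and 7.78e-08 by DESeq2). Islet markers summed to 3525 to 5621 CPM in the libraries labelled HC against 2955 to 3178 CPM beside it.

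Of the genes that carry the signal from the receptors, 14 of 15 Gq and calcium genes were tested in MC and KMC and 15 in the libraries labelled HC. In MC 1 was higher and none lower at an unadjusted p under 0.05, beside 9.2% and 5.46% of all genes. In KMC 4 were higher and 1 lower, beside 16.1% and 9.48% of all genes. The gene in MC was Cd38, an enzyme that makes calcium-mobilizing messengers and is also a leukocyte surface protein. Cd38 was 13.0, 12.4 and 11.5 CPM in MC against 3.34, 7.95 and 1.98 CPM, and 9.78 and 28.4 CPM in KMC against 1.97 and 3.17 CPM in KC. Both groups were above their controls in every library, with log2 fold changes of 1.46 (SE 0.44, adjusted p = 0.228) and 2.88 (SE 0.57, adjusted p = 0.0796) by edgeR's quasi-likelihood test. Leukocyte markers summed to 811 to 1196 CPM in MC against 403 to 1094 CPM in its controls, which overlapped in sum. However, 8 of 8 of these markers were higher, with a median log2 fold change of 1.41. Of them, 5 were higher without overlap and 5 had an unadjusted p under 0.05, beside 10.9% and 9.2% of all genes. Their part in the level of Cd38 was not tested. In the libraries labelled HC 3 genes were higher and 1 lower at an unadjusted p under 0.05, beside 8.39% and 7.47% of all genes. The median there was 0.06. Atp2b1, the calcium pump of the plasma membrane, was 345, 382 and 388 CPM there against 246 and 237 CPM (0.62, SE 0.12, adjusted p = 0.0796, edgeR).

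The 8 genes of Gs and cAMP signalling had median log2 fold changes of -0.09 in MC, 0.13 in the libraries labelled HC and -0.30 in KMC. Akap1, an anchor for protein kinase A, had log2 fold changes of -0.56 in MC (SE 0.22, adjusted p = 0.301) and 0.47 in the libraries labelled HC (SE 0.09, adjusted p = 0.0724). Adcy3, an adenylyl cyclase, was higher in KMC by 2.04 (SE 0.54, adjusted p = 0.104, edgeR). The 9 other secretagogue receptors tested had medians of -0.28, 0.11 and -0.50 in the same order. Vipr1, a receptor of vasoactive intestinal peptide, was lower in KMC by a log2 fold change of -1.51 (SE 0.45, adjusted p = 0.119, edgeR). Vipr2, the related receptor of the same peptide, was at -0.46 in MC (SE 0.23, adjusted p = 0.385, edgeR). Tacr1, the substance P receptor, was at -1.12 in the libraries labelled HC (SE 0.47, adjusted p = 0.323, edgeR).

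In 1 fit over the 15 libraries, the effects on the 10 genes were compared between KMC and MC and between MC and the libraries labelled HC. For none of the 10 did the effects differ at an adjusted p of 0.05. With a log2 difference of 1 or more in size also required, 0% of 14898 genes differed for KMC against MC. For MC against HC this was 0.953%. The effect in KMC exceeded that in MC by 1.13 for Itpr3 (SE 0.41, interval 0.32 to 1.93, unadjusted p 0.0169, adjusted p = 0.161, edgeR). It was lower by a difference of -1.36 for Chrm3, -1.80 for Sycn, -1.21 for Rab3d and -2.51 for Zg16, with unadjusted p-values of 0.0246, 0.0328, 0.0341 and 0.0481 and adjusted p-values of 0.175 to 0.215 (edgeR). These 5 genes stand beside 22.9% of all genes with an unadjusted p under 0.05. Between MC and the libraries labelled HC the largest gap relative to its error was that of Vamp8, at -0.62 (SE 0.34, interval -1.28 to 0.04, adjusted p = 0.437, edgeR). For Cckar the difference between MC and HC was 0.27 (SE 0.65) with an interval of -1.0 to 1.53, so that a difference of either sign was not detectable with these libraries. The intervals are nominal 95% intervals from the SE by the normal distribution, and are narrower than the quasi-likelihood test implies. For Vamp8 in KMC against MC the interval of -1.42 to -0.04 lay below 0, at an unadjusted p of 0.0592 (edgeR).

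Over the 15 libraries, after centring each table, the granule proteins varied with each other and with the receptor, as a description of libraries that share acinar content. The values were log2 TMM-scaled CPM. Tables and not groups were centred, so that differences between a group and its control are part of r. Other scalings were not tried for r. Pearson's r was 0.960 between Gp2 and Sycn, 0.957 between Rab3d and Sycn, 0.927 between Cckar and Sycn and 0.921 between Cckar and Gp2. Itpr3 ran opposite to these, with r of -0.841 against Sycn and -0.827 against Cckar. Sctr stood apart, with r between -0.131 and 0.106 against each of the others, Cckbr being left out because it was not tested in every table. Among 13647 genes, the ones most like Cckar were Gamt (r = 0.972), P2rx1 (0.960) and Edem2 (0.959). Those most like Rab3d were Mdh1 (0.986), Slc39a11 (0.984) and P4hb (0.983), and those most like Sycn were Gcat (0.992), Cela3b (0.989) and Ctrb1 (0.985). For Zg16 they were Pla2g1b (0.974), Try4 (0.967) and Gstz1 (0.942), and for Gp2 they included Pabpc4 (0.975) and Aifm3 (0.968). Chrm3 was most like Pnliprp2 (0.958), and Vamp8 was most like Higd2a (0.981). The highest values were lower for Itpr3 (Parp2, 0.954) and for Sctr (Psmc3ip, 0.837).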

How the data were processed

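RNA-Seq counts of 15 mouse pancreas libraries in 3 tables were analysed. The values that the authors deposited are raw counts of reads per gene with no normalization applied. The study's methods and the submitters' processing notes name GRCm38 (mm10), GENCODE genes, bcl2fastq 2.17.14, STAR 2.6.1a and HTSeq 0.6.1, and the strand setting of the counting is not given in the sources used here. The labels name Trizol and, for the HC, KC and KMC libraries, the KAPA Stranded mRNA-Seq Kit, whereas the paper names RNeasy and TruSeq. A further table, the authors' DESeq2 result of MC against control (base mean, log2 fold change, SE, statistic, p and adjusted p), was not used.

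Of the identifiers, 49326 of 49585 and 15164 of 15175 were named by the annotation. Samples were grouped by the labels. Each pair of groups was filtered with filterByExpr, scaled by TMM and tested with the quasi-likelihood test of edgeR 4.0.16 (glmQLFit, glmQLFTest) in R 4.3.3, with Benjamini-Hochberg adjustment over all genes tested. The SE is that of the log2 fold change from this test. Differences between effects came from a fit over all libraries. DESeq2 1.42.0, other scalings, other filters, all 15 libraries in one fit, the replicate number as a block and leaving out each library were alternatives. The fits were tested on simulated data first. The total counts of each library, and the 3 counts that a count of 0 allows, cover counting error only.

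The genes and the lists were chosen with earlier results of these data known. The text names all 10 genes and, from each list of related genes, the gene with the smallest p and those that passed the adjusted p in a comparison. Map4k1, the sex-linked genes and the cell type markers are named as checks. Differences of fractions of acinar counts are ratios of counts and were not tested. Of the genes most like Gp2, 1 is not reported here.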

Additional observations from a re-analysis of the deposited data

How the results depend on the processing

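The count of differentially expressed genes depended on the method and on single libraries. In MC against control it was 0 and became 453 with DESeq2, 166 with all 15 libraries in one fit, 96 with housekeeping scaling and 1 with library size alone, and it ranged from 0 to 718 when 1 library was left out (718 without control 2, 171 without MC 1). In the libraries labelled HC (HC here) it was 104 and became 467 with DESeq2, 0 with all 15 libraries in one fit, 189 with housekeeping scaling and 49 with library size without acinar enzymes, with 0 to 379 when 1 library was left out (379 without HC 1, 3 without HC 3, 0 without HC 2 or either control). In KMC it was 3 and became 2159 with DESeq2, 3608 with all 15 libraries, 348 with housekeeping scaling, 4715 with library size alone, 1756 without acinar enzymes and 8 with no filter, with 0 to 2312 when 1 library was left out (2312 without KMC 1, 76 without KMC 2). The difference between the effects in MC and HC was called for 142 genes, and for 618 with DESeq2, 1 with library size alone and 0 to 493 with 1 library left out. For KMC and MC these counts were 0, 604 with DESeq2 and 0 to 1922.

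Of the 10 genes, the number called in KMC was 0 and became 6 with DESeq2, 8 with all 15 libraries in one fit, 1 with library size alone (Itpr3) and 0 to 3 with 1 library left out (3 without KMC 1). For the difference between KMC and MC it was 0 to 7 with 1 library left out (7 without KMC 1, 2 without KC 2). Of the related genes, those called in MC were 0, with 1 by DESeq2 and 0 to 2 with 1 library left out (2 without control 2). In HC they were 1, with 3 by DESeq2, 0 with all 15 libraries or without acinar enzymes, 2 with housekeeping scaling or no filter, and 0 to 4 with 1 library left out (4 without HC 1). In KMC they were 0, with 26 by DESeq2, 30 with all 15 libraries, 1 with housekeeping scaling, 13 with library size alone, 6 without acinar enzymes and 0 to 21 with 1 library left out (21 without KMC 1).

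Directions turned as follows. With library size alone the MC log2 fold change was 0.035 for Rab3d, 0.065 for Zg16, 0.093 for Vamp8 and 0.28 for Itpr3, and that of Vamp8 in KMC was 0.69. In the same setting the difference between MC and HC was 0.18 for Zg16 and 0.11 for Itpr3, and that between KMC and MC was 0.65 for Vamp8. In MC, Chrm3 was -0.18 with housekeeping scaling and Itpr3 was 0.042 without acinar enzymes. With 1 library left out, the ranges that crossed 0 were, in MC, -0.83 to 0.030 for Cckar, -0.051 to 0.14 for Chrm3, -0.13 to 0.054 for Itpr3, -0.034 to 0.55 for Sctr and -0.57 to 0.17 for Zg16. In HC they were -0.28 to 0.064 for Chrm3, -0.36 to 0.037 for Gp2, -0.60 to 0.21 for Sctr, -0.27 to 0.20 for Sycn and -0.38 to 0.40 for Zg16, and in KMC -0.18 to 1.18 for Sctr. For the differences they were -0.16 to 0.70 for Cckar, -0.068 to 0.29 for Chrm3 and -0.76 to 0.20 for Zg16 between MC and HC, and -0.54 to 0.86 for Sctr between KMC and MC. The cause of these changes was not tested.

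Same-numbered deviations correlated by 0.0665, 0.296 and -0.297 in MC, within the -0.391 to 0.351 of differently numbered libraries there. There were 2 pairs each in HC (0.189 and 0.170) and KMC (0.0514 in both). In a group of 2 libraries the deviations mirror each other. The HC and KMC values therefore cannot decide whether the replicate numbers pair the samples. With the replicate number as a block, the genes called were 339 in HC and 2464 in KMC, the related genes called were 2 in HC and 20 in KMC, and 4 of the 10 genes were called in KMC (Cckbr, Chrm3, Rab3d and Itpr3). Gp2 in HC was 0.042 under the block. The newer quasi-likelihood fit of edgeR, an alternative chosen after seeing the data, called 0, 130 and 4 genes in MC, HC and KMC and none of the 10 genes. With 2 libraries in some groups, the spread within a group is poorly known, and a count of 0 in a library allows up to 0.0774 to 0.101 CPM.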
